A study of Gallus gallus with 16 samples.

Results

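The 184 probes described here had higher values, relative to a common reference, in the pituitary gland of younger chicken embryos than at the oldest age studied. Their largest drop came in the last interval studied, between embryonic days 14 and 17 (E14 and E17). They were selected on the deposited array values themselves. A probe had to have at least 3 values at every age, a mean at E10 at least 0.45 above its mean at E17, and a larger drop from E14 to E17 than from E10 to E12 or from E12 to E14. Enough values were present in 7103 of the 7200 rows, and 184 of these (2.59%) met the rule. They were 45.5% of the 404 rows whose total fall, the E10 mean minus the E17 mean, reached 0.45. The last interval was also the longest, at 3 days against 2 for each of the others. The other falling rows dropped most from E10 to E12 (123 rows) or from E12 to E14 (97 rows). Every difference between ages was used to choose the probes. Those differences are therefore given as a description, without a test.

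The anterior pituitary forms from an outpocketing of the oral epithelium, and its hormone cells appear in sequence. In the chick, corticotrophs are present early, thyrotrophs follow, and somatotrophs and lactotrophs, the makers of growth hormone and prolactin, become abundant late in incubation. Over the same period the gland changes from a growing epithelium into a secretory tissue with its own capillary bed.

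Chicken embryos gave pituitary glands on embryonic days 10, 12, 14 and 17, and each age had 4 biological replicates. Glands were pooled, and fewer were needed with age: an E10 replicate held 16 embryos, an E12 replicate 8, an E14 replicate 4 and an E17 replicate 2. From each pool 500 ng of RNA was amplified, labelled with Cy3 and hybridised to a 2-colour cDNA microarray against 1 common Cy5 reference, a mixture with 2 µg from every one of the 16 samples. The values are the authors' deposited log ratios of sample over reference, which had been centred and scaled by array. They are called scaled log ratios below, and no fold changes are given because the scale is not known. The direction, sample over reference, is not stated in the sources used here and rests on a check against the mixture. Were it turned, the probes would rise with age.

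Whole pools of glands were measured, so fewer cells of a type and less RNA per cell cannot be told apart. Each array held 7023 to 7194 values. Of the 2944 values of the 184 probes 4 were missing, and 180 probes had a value on all 16 arrays. The annotation used here gives a gene symbol to 54 rows, all of them STUB1, and none of the 184 probes is among them. The probes are therefore identified by row number, no hormone, cell type or pathway list could be applied, and the tissue could not be checked against its markers. Replicates 3 and 4 of both E12 and E14 lacked a value in 39 to 45 of the first 45 rows, and the remaining arrays lacked at most 1 there. Those 4 arrays are called the arrays with blank spots below, a name that rests only on these missing values.

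As a group, the 184 probes stood above the reference at E10, near it at E12 and E14, and well below it at E17. Averaged over the probes, the E10 arrays had 0.20 ± 0.03, the E12 arrays 0.05 ± 0.09, the E14 arrays -0.04 ± 0.10 and the E17 arrays -0.43 ± 0.03 (mean ± SD, n = 4 arrays for every age). By array, it was 0.23, 0.17, 0.17 and 0.22 on E10 replicates 1 to 4. It was -0.08, 0.10, 0.05 and 0.13 on the E12 arrays. It was -0.12, 0.09, -0.10 and -0.02 on the E14 arrays, and -0.46, -0.39, -0.42 and -0.45 on the E17 arrays. The 4 oldest pools lay together, far below every other array. The E12 and E14 arrays overlapped, and E12 replicate 1 lay among the E14 arrays. The E14 arrays with blank spots had -0.10 and -0.02, while those without had -0.12 and 0.09.

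**Figure D1:**
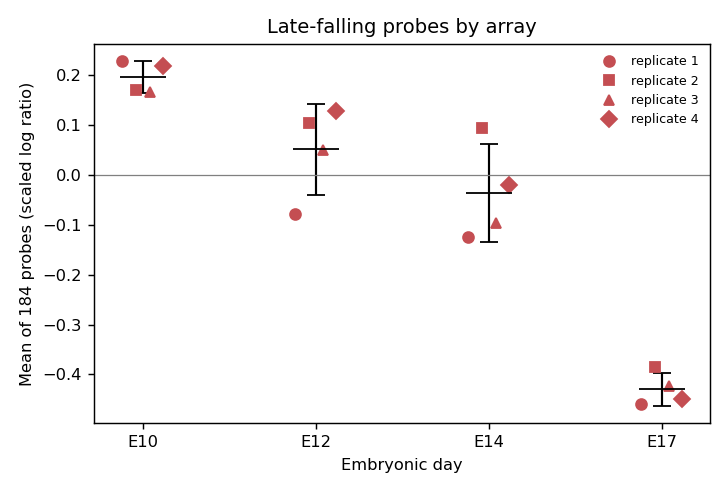
Mean of the 184 late-falling probes on each array (y axis, scaled log ratio of sample over reference) by embryonic day (x axis); symbols mark the replicate, horizontal bars the mean of 4 arrays and error bars its SD. The E17 arrays lie between -0.46 and -0.39, below all others, while the E12 and E14 arrays overlap.

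Single probes followed the same course with some width. The mean was above 0 in 170 of the 184 probes at E10, but in 124 at E12, 74 at E14 and 0 at E17. The drop from E14 to E17 had a median of 0.36, with quartiles of 0.28 and 0.46 and extremes of 0.18 and 1.25. Over all 7103 rows the median of the same difference was 0.00. The drop was at least 0.5 in 33 probes and at least 1 in 3. The drops before it were smaller, with medians of 0.15 from E10 to E12 and 0.09 from E12 to E14.

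The last interval held a median of 59.3% of the total fall, with quartiles of 47.8% and 69.7%. In 135 probes the mean went down in all 3 intervals. In 17 it rose between E10 and E12, and in 37 between E12 and E14. The mean was highest at E10 in 160 probes, at E12 in 12 and at E14 in 12. In 14 probes the last drop was larger than the whole fall from E10, because the E14 mean lay above the E10 mean.

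The last interval lasted 3 days and the others 2. Counted per day, the drop was largest in the last interval for 112 of the 184 probes. The median drop per day was 0.12 in that interval, 0.07 between E10 and E12 and 0.05 between E12 and E14.

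**Figure D2:**
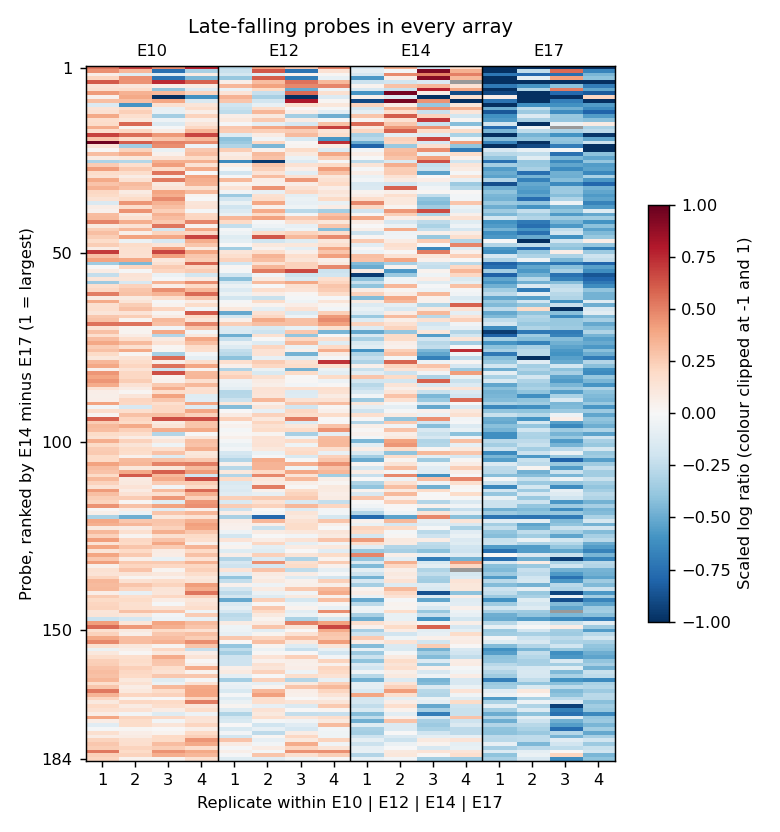
Scaled log ratios of the 184 late-falling probes (rows, ranked by the E14 mean minus the E17 mean) on the 16 arrays (columns, by age and replicate); red is above the reference, blue below it, grey missing, and colours are clipped at -1 and 1. The E10 columns are mostly red and the E17 columns mostly blue, and the E12 and E14 columns are pale and mixed.

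The separation of single arrays was less complete than that of the means. In 73 of the 184 probes every E17 array lay below every E14 array, against 3.58% of all rows tested. In 68 probes every E17 array lay below all 12 younger arrays, against 2.14% of all rows. Every E17 array lay below every E10 array in 171 probes, against 15.7% of all rows. Differences were also fitted over all rows with limma, with a mean per age and a threshold of 0.05 on the adjusted p. Of the 184 probes, 30 were called lower at E17 than at E14, against 0.718% of all rows (51 rows). Lower values at E17 than at E12 were called for 106 probes (3.76% of all rows) and lower values at E17 than at E10 for 169 (10.2% of all rows). Lower values at E14 than at E10 were called for 24 probes (3.39% of all rows). Between E10 and E12 limma called none of them, against 0.394% of all rows. At an unadjusted p under 0.05 it gave 26 of the 184 probes and 678 of all 7103 rows. The rule used all of these contrasts, so the counts describe how far the drops stood above the spread between arrays and show nothing further about the group.

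These counts depended on single arrays, among the 184 probes and among all rows alike. The 30 calls for E17 below E14 (51 over all rows) became 15 without E14 replicate 2 (28 over all rows) and 18 without E17 replicate 1 (31 over all rows). They became 18 without E17 replicate 3 (29 over all rows) and 13 without E17 replicate 4 (18 over all rows). In a fit of the E14 and E17 arrays alone there were 7 (11 over all rows). The 24 calls for E14 below E10 (241 over all rows) became 15 without E10 replicate 1 (152 over all rows).

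**Figure D3:**
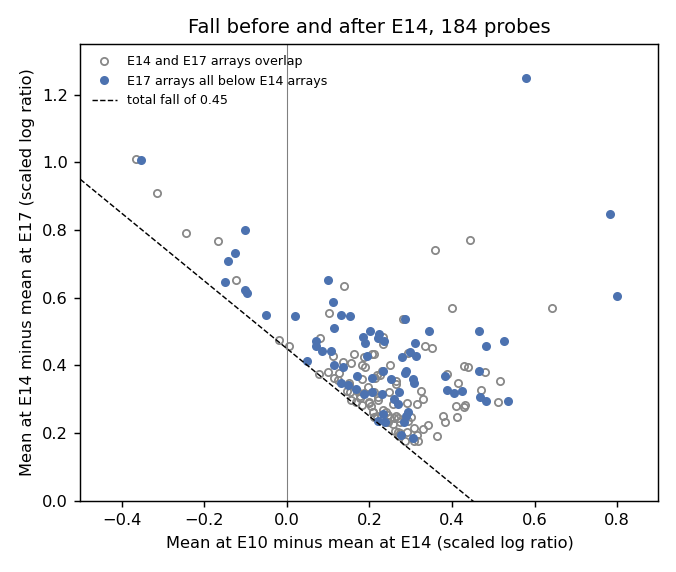
Drop from E14 to E17 (y axis) against the fall from E10 to E14 (x axis) for the 184 probes, both as differences of scaled log ratio means; filled points are the 73 probes whose E17 arrays all lie below their E14 arrays, and the dashed line is a total fall of 0.45. Most points lie to the right of 0, with a minority to its left whose E14 mean was above the E10 mean.

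Probe 4970 had both the largest drop in the last interval and the largest total fall. Its scaled log ratios on replicates 1 to 4 were 0.54, 0.68, 0.48 and 0.77 at E10, -0.28, 0.40, 0.27 and 0.50 at E12, -0.17, 0.36, -0.21 and 0.17 at E14, and -1.14, -1.31, -1.08 and -1.33 at E17. The E17 arrays were far below all others, while E12 and E14 overlapped. The mean dropped by 1.25 from E14 to E17 (SE 0.15 in the limma fit) and by 1.83 from E10.

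Probe 171 had the second largest total fall, 1.63, and went down in every interval, by 0.29, 0.49 and 0.85. Its values were 0.62, 0.45, 0.75 and 0.59 at E10, 0.06, 0.31, 0.54 and 0.32 at E12, -0.21, -0.20 and -0.14 at E14, where replicate 4 has no value, and -1.067, -1.003, -1.038 and -1.011 at E17. No array of E10 overlapped with E14, nor of E14 with E17. The SD of the replicates at E17 was 0.03. The last drop (SE 0.11) was 52.0% of the total.

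The mean of probe 3725 was higher at E14 than at E10 or E12. The probe stood at 0.07, -0.12, -0.13 and 0.08 at E10, at -0.18, -0.12, 0.04 and 0.02 at E12, at -0.17, 0.47, 0.50 and 0.50 at E14, and at -0.72, -0.79, -0.75 and -0.45 at E17. E14 replicate 1 lay apart from its 3 fellow arrays at about the E12 level. The drop from E14 to E17 was 1.01 (SE 0.13), which is 154% of the total fall of 0.65. All 4 E17 arrays were below every younger array.

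Probe 5590, picked after its values were seen, was one of the 12 probes with the highest mean at E12. Its values were 0.14, 0.11, 0.07 and 0.08 at E10, 0.33, 0.40, 0.48 and 0.49 at E12, 0.03, 0.29, 0.33 and 0.15 at E14, and -0.71, -0.59, -0.41 and -0.69 at E17. The E12 arrays lay above those of every other age, and the E17 arrays below. Its drop from E14 to E17 was 0.80.

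At the other end, the last interval held little more than either of the others. In probe 1344 it held 34.4% of a total fall of 0.55, and in probe 1400 it held 35.5% of 0.83. Probe 1344 stood at -0.22, -0.06, 0.03 and -0.09 at E14 and at -0.08, -0.45, -0.19 and -0.37 at E17, so the ages overlapped. Probe 1400 stood at -0.11, -0.30, -0.28 and -0.20 at E14 and at -0.56, -0.56, -0.39 and -0.56 at E17, without overlap. With single arrays left out, these probes still met the rule in 8 and 7 of 16 cases.

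The probes with the closest replicates were 1446 and 1296, with SDs averaging 0.06 over the 4 ages in both. Probe 1296 went down in every interval, from a mean of 0.40 at E10 through 0.26 at E12 to -0.32 at E17, and its last drop was 0.32 (SE 0.07). Probe 1446 went from 0.22 through 0.10 and -0.08 to -0.27, with a last drop of 0.19 (SE 0.07). That drop, 0.187, was just larger than the one from E12 to E14, at 0.185. With single arrays left out, probe 1446 still met the rule in 11 of 16 cases. The E14 and E17 arrays did not overlap in either probe.

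**Figure D4:**
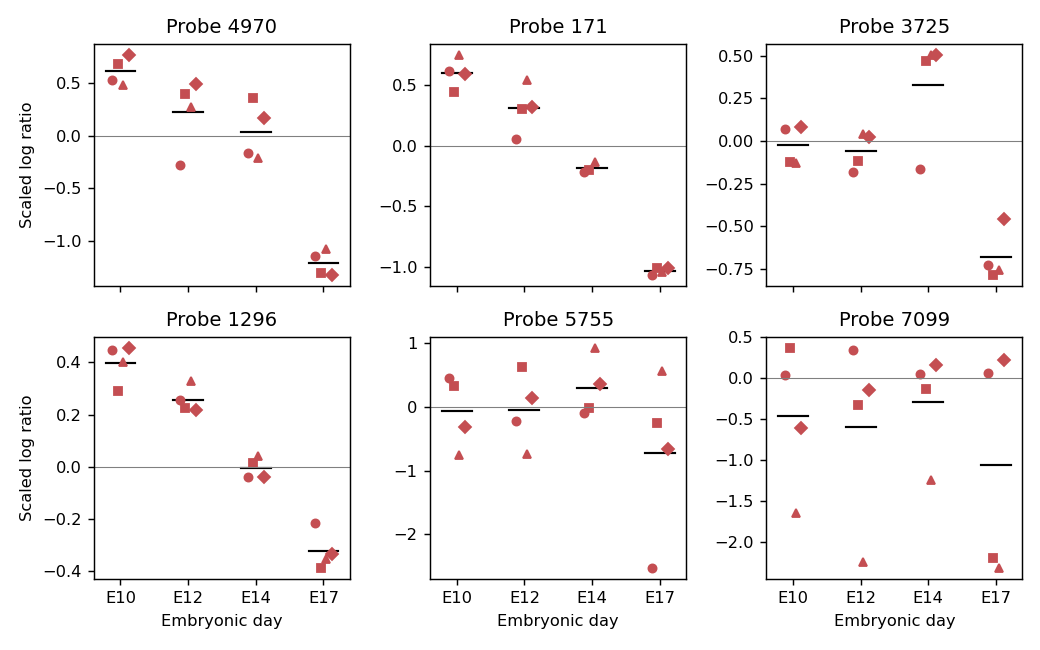
Scaled log ratios (y axis, a separate scale in each panel) of 6 of the late-falling probes on each array by embryonic day (x axis); points are arrays, with circle, square, triangle and diamond for replicates 1 to 4, and bars are means. Probes 4970, 171, 3725 and 1296 have low E17 arrays that lie together, whereas the E17 arrays of probes 5755 and 7099 spread over more than 2 units.

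The edges of the group were narrow. Probe 1439 was just inside the threshold of the total fall, at 0.451, and probe 5529 lay just outside it. In probe 1298 the last drop, 0.283, was just larger than the one from E10 to E12, at 0.282, and in probe 2117, which is outside the group, 0.205 was just smaller than 0.206. Leaving out each array in turn and applying the rule again kept 72 of the 184 probes in all 16 cases and 159 in at least 12. The fewest cases for any probe were 6. Without E14 replicate 2, 46 of the 184 were lost, and without E14 replicate 1 only 9, while the number of rows that met the rule was 148 and 229.

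Some probes were in the group because of 1 or 2 arrays. Probe 5755, with the second largest last drop of 1.01, stood at -0.10, -0.02, 0.93 and 0.36 at E14 and at -2.52, -0.25, 0.57 and -0.66 at E17. At E17, replicate 3 was as high as the E14 arrays and replicate 1 was far below every other array. Without E17 replicate 1 the drop was 0.41, and the probe no longer met the rule. Probe 4070 had the same pattern, with -0.57, 0.07, 0.91 and 0.33 at E14 and -2.82, -0.10, 0.41 and -0.40 at E17, and so did probe 4747, with -0.16, -0.22, 0.77 and 0.39 and then -2.08, -0.30, 0.52 and -0.52. Without E17 replicate 1 their drops were 0.21 and 0.30.

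These 3 probes, picked after their values were seen, departed from their age means together. The low value on E17 replicate 1, through which they met the rule, is part of these departures, so the likeness is not independent of the selection. Their deviations from the age means, over the same 16 arrays, correlated at 0.97 (5755 with 4070), 0.97 (5755 with 4747) and 0.95 (4070 with 4747). Of all other rows 1, probe 3928, correlated above 0.9 with probe 5755. It is outside the group, with a range of -0.94 to 0.29 at E17. At E10 the SD of probe 5755 was 0.57, at E12 0.57, at E14 0.47 and at E17 1.31, where each pool held 2 embryos. The part of pool size in this spread was not tested.

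Probe 7099 had the widest replicates of all 184, with SDs averaging 1.02. Its values were 0.04, 0.38, -1.64 and -0.60 at E10, 0.35, -0.32, -2.25 and -0.14 at E12, 0.05, -0.13, -1.25 and 0.17 at E14, and 0.07, -2.20, -2.32 and 0.22 at E17. Replicate 3 was the lowest array at all 4 ages, and E17 replicate 2 was low as well. Its E17 mean of -1.06 (SD 1.39) thus joins 2 arrays above 0 with 2 below -2. No other row of the group had deviations that correlated above 0.9 with it.

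Probes 1466 and 1559, chosen after their values were seen, were similar to each other but were split at E14. Probe 1466 stood there at -0.90, 0.95, 0.45 and -1.09 and probe 1559 at -0.59, 0.96, 0.08 and -0.91, while the 4 E17 arrays ranged from -1.12 to -0.68 and from -1.02 to -0.77. Their deviations correlated at 0.94 over the 16 arrays. In both, E14 replicates 2 and 3 lay far above replicates 1 and 4. Replicates 1 and 4 were within the E17 range in probe 1466, and in probe 1559 replicate 4 was and replicate 1 was above it.

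More widely, the late-falling probes shared their departures from the age means. The median correlation of these departures was 0.15 over the 16836 pairs of the 184 probes, against 0.00 over all pairs of rows. It was 0.16 for the probes that fell mostly from E10 to E12 and 0.19 for those that fell mostly from E12 to E14, so the late-falling probes did not stand out among falling probes. The points are the same 16 arrays throughout, so no test is given. In 26 pairs (0.154%) the correlation was above 0.9, against 0.0481% of all pairs, and these pairs linked 33 probes into 13 sets. The share of such pairs was 0.0800% among the probes that fell mostly from E10 to E12 and 0.150% among those that fell mostly from E12 to E14. The largest set was of 5 probes, 431, 495, 2091, 2390 and 3004, whose last drops were 0.46, 0.54, 0.48, 0.36 and 0.38. In each of the 5, the lowest E14 array was replicate 3, as it was in 41.3% of the 184 probes. The set was linked by departures on these same arrays, so this likeness is not independent of the linking.

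The shared departures fell on particular arrays. At E10, replicate 3 was the lowest for 80 of the 184 probes (43.5%, against 27.3% of all rows). It was replicate 1 for 20 (10.9%, against 23.7%) and replicate 2 for 54 (29.3%, against 25.3%). Among probes that fell mostly from E10 to E12, E10 replicate 3 was lowest for 35.8%, replicate 1 for 9.76% and replicate 2 for 43.9%. Among those that fell mostly from E12 to E14, replicate 3 was lowest for 34.0%, replicate 1 for 15.5% and replicate 2 for 24.7%. E12 replicate 1 was the lowest E12 array for 112 of the 184 probes (60.9%, against 28.2% of all rows). At E14, replicate 3 was the lowest for 76 (41.3%, against 25.3%) and replicate 1 for 68 (37.0%, against 26.8%). E14 replicate 2 was lowest for only 12 (6.52%, against 27.1%) and was the highest for 87. In the other falling probes E14 replicate 2 was also seldom the lowest. Replicate 2 was lowest for 12.2% of those that fell mostly from E10 to E12 and for 9.28% of those that fell mostly from E12 to E14, replicate 1 for 42.3% and 43.3%, and replicate 3 for 35.0% and 38.1%. E12 replicate 1 was also lowest for 48.8% of the probes that fell mostly from E10 to E12 and for 66.0% of those that fell mostly from E12 to E14. At E17 the lowest array was replicate 1 for 45 of the late-falling probes (24.5%, against 20.7% of all rows) and replicate 2 for 36 (19.6%, against 28.7%). It was replicate 3 for 58 (31.5%, against 27.3%) and replicate 4 for 45 (24.5%, against 23.3%). The highest E17 array was replicate 1, 2, 3 or 4 for 29, 77, 54 and 24. Shares of all rows are not given here for the highest array, at E14 or at E17.

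Replicates of the late-falling probes were least alike at E14, as were those of all rows and of the other falling probes. The median SD at E14 was 0.175 in those that fell mostly from E10 to E12. It was 0.199 in those that fell mostly from E12 to E14. Over the 184 probes the median SD was 0.115 for E10, 0.169 for E12, 0.213 for E14 and 0.134 for E17, against 0.113, 0.165, 0.186 and 0.136 over all rows. The SD was higher at E14 than at E17 in 136 probes (73.9%), against 67.2% of all rows. That number was 108 with quantile normalization and 107 without the 4 arrays with blank spots. The share of all rows was not taken in those settings. Within ages, a term for the 4 arrays with blank spots and one for odd or even replicate numbers were also fitted, neither of which the rule used. For the blank spots limma called 0 of the 184 probes and 0% of all rows. At an unadjusted p under 0.05 it gave 19 of the 184 probes and 590 of all 7103 rows. For odd against even numbers it called 0 probes and 0% of all rows. At an unadjusted p under 0.05 it gave 39 of the 184 probes and 1335 of all 7103 rows. For both terms the number over all rows was above a share of 0.05, which this threshold gives on average where no row differs. The lack of calls therefore does not show that either difference was absent.

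The late-falling probes were unevenly placed in the table, which the rule also did not use. Rows 1 to 3600 held 130 of them (70.7%) and rows 3601 to 7200 held 54 (29.3%), from 3508 and 3595 tested rows. Per 1200 rows they were 4.59%, 3.75% and 2.84% of the tested rows in the first 3 stretches and 1.67% to 1.34% in the others. Of the probes that fell mostly from E10 to E12, 56.1% lay in rows 1 to 3600, and of those that fell mostly from E12 to E14, 67.0%. Of the 117 probes with the opposite course, rising mostly from E14 to E17, 68.4% lay there, so the placing was shared by rising probes. Replicates were also closer in the early rows: the median of the mean SD within ages was 0.14 in rows 1 to 1200 and 0.19 in rows 6001 to 7200. The part of the spread in this placing was not tested, and the order in which clones were put on the slide is not given in the sources used here.

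**Figure D5:**
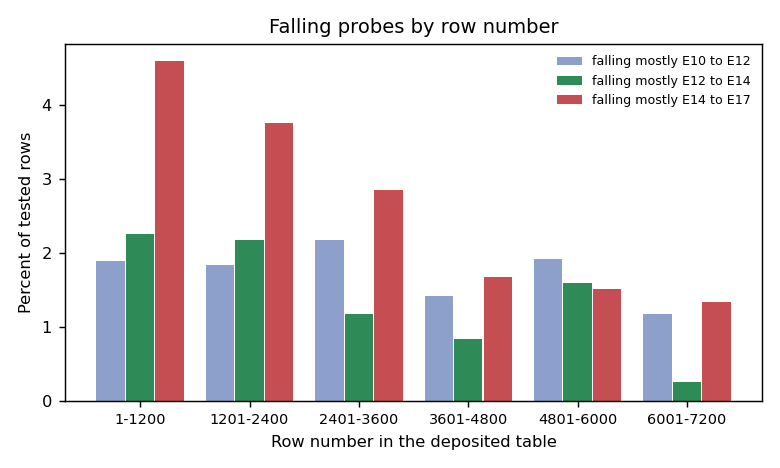
Share of the tested rows (y axis, percent) that belonged to each of 3 groups of falling probes, for 6 stretches of 1200 rows of the deposited table (x axis). The share of late-falling probes (red) goes from 4.59% in the first stretch to 1.34% in the last.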

How the data were processed

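Per the labels' protocols, amplified RNA of each pituitary pool (Cy3) was hybridised with a pool of all 16 samples (Cy5). The authors' deposited values, 1 per spot and array, were read as log2 of sample over reference. For image analysis, background correction, normalization, log base and direction, the steps were not given in the sources used here. Array medians lay between -0.023 and 0.036 and all SDs at 0.261, so arrays had been centred and scaled. Direction was checked on the 56 rows whose age means varied most (variance above 0.5): the mean ratio to a pool of all samples should vary little, and its SD (log2) was 0.10 as given and 0.33 with the sign turned. Were the sign turned, the probes would rise. The lowest correlation between arrays was -0.37 (E10 replicate 3 with E17 replicate 2). Ages can oppose each other around their own pool, so the direction was kept.

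The members and lists were chosen with earlier results of these data known. limma 3.58.1 in R 4.3.3 (lmFit, eBayes) was fitted to all 16 arrays, with Benjamini-Hochberg adjustment over 7103 rows, and tested on simulated data. The number of arrays limits the precision. Single probes were named by rule: the 2 with the largest last drop, the largest total fall, the highest and lowest share in the last interval, the lowest and highest mean SD, and the rows at each threshold. Alternatives covered centring, quantile normalization, array weights, terms for blocks and leaving out arrays. No sequences of the probes were used here.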

Additional observations from a re-analysis of the deposited data

Results flagged for a closer look

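Single arrays were compared with their 3 fellows in groups of 4 values, from 13 probes and the mean of all 184. Of the 56 groups, that of probe 171 at E14 had only 3 values and was not compared. An array stood apart in 3 groups, and by chance about 2.8 would (1 in 20). For probe 3725 it was E14 replicate 1, at -0.166, with the rest of that age from 0.469 to 0.505. For probe 1400 it was E17 replicate 3, at -0.387, with the rest from -0.559 to -0.557. For probe 1298 it was E12 replicate 2, at -0.054, with the rest from 0.046 to 0.062.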

How the results depend on the processing

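The number of rows that met the rule followed its thresholds: 393 with a total fall of 0.3, 78 with 0.6 and 112 with the largest step taken per day. With medians over arrays in place of means 189 rows met it, of which 140 were among the 184. Leaving out the 4 arrays with blank spots left 2 arrays at E12 and 2 at E14. Then 118 probes had E17 arrays all below their E14 arrays, a count not taken over all rows. Full separation is easier to reach with fewer E14 arrays, so it cannot be compared with the count from all arrays. Calls for E17 below E12 were 45 (88 over all rows), against 106 (267) with all arrays. Calls for E14 below E10 were 11 (102 over all rows), against 24 (241). For E17 below E14 (30 calls, 51 over all rows) the fit of the 2 ages alone gave 7 (11 over all rows). The term for blank spots gave 21 (35 over all rows). With 1 array left out the calls for E17 below E14 were 13 to 34 (18 to 71 over all rows). Those for E14 below E10 were 15 to 35 (145 to 285 over all rows). For E12 against E10 they were 0 to 1 (1 without E14 replicate 3, where 37 of all rows were called). For odd against even numbers they were 0 to 5 (5 without E10 replicate 1, where 90 of all rows were called). The median drop from E14 to E17 was 0.31 to 0.39 over its 21 alternatives. Quantile normalization moved the drops of probes 4970 and 171 to 1.71 and 1.26. Without the 3 probes that varied together, an alternative chosen after seeing the data, 181 probes remained and their median drop was 0.36.

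Replicate numbers are shared between ages, but deviations of same-numbered arrays correlated above 0.1 in 13 of 24 pairs, not in all. Their median correlation was 0.13, against -0.04 for other pairs. Deviations cancel over the arrays of an age, so the value for other pairs largely follows from the first and is no separate baseline. Of 16 arrays, 11 correlated best with their own number, a hint of pairing from the data, not the design. With the replicate block, limma called 38 probes lower at E17 than at E14 (63 over all rows) and 34 lower at E14 than at E10 (318 over all rows), against 30 (51) and 24 (241) without it. The term for blank spots could not be fitted without the 4 arrays that have them, and the term for odd against even numbers could not be fitted together with the block.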
